A study of Mus musculus with 89 samples.

Results

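Cholesterol and fatty acid synthesis was followed through 28 genes, all of which had a row in a table of 26276 named genes. They were taken from a list of sterol and fatty acid synthesis enzymes and of regulators of SREBP, the transcription factor that switches these enzymes on, by gene symbol and not by any measured value. The RNA came from V6.5 cells, a mouse embryonic stem cell line, in which the H2afz gene carries an FKBP-V tag, so that the histone variant H2A.Z.1 can be degraded when a dTAG molecule is added. Both groups had this tag and were grown in 2i medium with LIF and the inhibitors PD0325901 and CHIR99021, and they were compared as 3 libraries labelled dTAG and 3 labelled control. How long dTAG was applied to the RNA-seq cells is not given in the sources used here. The remaining 83 samples of the series, from ATAC-seq, ChIP-seq, ChIP-nexus and NET-seq, are not analysed here.

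Cells build cholesterol from acetyl-CoA through mevalonate, farnesyl diphosphate, squalene and lanosterol, and they build fatty acids from acetyl-CoA through malonyl-CoA. When sterols in the endoplasmic reticulum run low, SCAP carries SREBP proteins to the Golgi, where proteases free the part that enters the nucleus and binds the promoters of these enzymes; when sterols are plentiful, INSIG proteins hold SCAP back. Dividing stem cells use both pathways to make new membranes.

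Promoter windows of 22 of the 28 genes, 30 windows in all, were used here from RefSeq (build GRCm38.p6), each running from 250 bases before to 50 bases after an annotated start. The letters TCACNCCA, the core of the sterol response element bound by SREBP, were looked for on both strands and stood in 3 of the 30 member windows (10.0%), against 4.36% of all 32851 windows. CCAAT, the box of the factor NF-Y that works beside SREBP, was present in 20 member windows (66.7%, against 37.4% of all), and GGGCGG, the box of Sp1, in 23 (76.7%, against 35.7% of all). The 3 genes with the sterol core letters were Hmgcs1, Msmo1 and Srebf2, and the 250 bases before their starts are shown with those letters in capitals. In dTAG replicate 3 these genes stood at 8.17%, 8.89% and 78.8% of the control mean for Hmgcs1, Msmo1 and Srebf2. Of the other members below 50% of the control mean in that library, Idi1 (28.6%), Cyp51 (29.5%) and Ebp (47.7%) had no match. For Scd2 (13.5%), Fdft1 (21.1%), Scd1 (24.6%), Fdps (32.6%) and Stard4 (40.0%) no window was used here. Other forms of the sterol response element were not searched, so no match does not mean that a window lacks one. A link between the letters and the levels was not tested, and dTAG replicate 3 has the limits given below. The windows are chr13:119690101-119690350 on the plus strand for Hmgcs1, chr8:64733579-64733828 on the minus strand for Msmo1 and chr15:82147019-82147268 on the plus strand for Srebf2. The first capital lies 137, 177 and 162 bases before the start of Hmgcs1, Msmo1 and Srebf2.
Hmgcs1: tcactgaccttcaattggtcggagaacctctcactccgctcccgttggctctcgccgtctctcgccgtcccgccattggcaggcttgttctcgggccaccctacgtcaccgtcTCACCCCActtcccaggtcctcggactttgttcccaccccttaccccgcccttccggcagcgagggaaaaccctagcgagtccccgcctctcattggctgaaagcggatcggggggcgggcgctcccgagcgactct
Msmo1: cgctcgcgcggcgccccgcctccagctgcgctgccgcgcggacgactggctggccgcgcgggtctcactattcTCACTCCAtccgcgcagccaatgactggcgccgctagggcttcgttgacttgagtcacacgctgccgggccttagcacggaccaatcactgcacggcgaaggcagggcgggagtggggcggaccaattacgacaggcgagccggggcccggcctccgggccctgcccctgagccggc
Srebf2: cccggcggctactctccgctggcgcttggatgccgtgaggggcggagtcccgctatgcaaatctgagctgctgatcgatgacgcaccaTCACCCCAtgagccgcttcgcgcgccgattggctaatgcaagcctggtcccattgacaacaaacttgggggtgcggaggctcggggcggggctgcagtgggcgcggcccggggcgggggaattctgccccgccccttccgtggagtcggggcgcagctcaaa
A match of letters is a description of the window, and binding was not measured here.

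The libraries were unequal. The dTAG libraries held 13214351, 2284068 and 2121183 counts in replicates 1, 2 and 3, and the control libraries held 14427884 to 16033011. Of 1462 olfactory and vomeronasal receptor genes, which stem cells do not use, 23.5%, 71.5% and 97.0% had a count in dTAG replicates 1, 2 and 3, against 10.9% to 18.2% in the controls. The 2 mitochondrial ribosomal RNAs took 6.94%, 4.94% and 0.165% of the counts in dTAG replicates 1, 2 and 3, against 6.84% to 7.13% in the controls. All 8 stem cell markers had counts in each library, with a summed level of 2585, 1537 and 470.1 CPM (counts per 1000000 counts in named genes) in dTAG replicates 1, 2 and 3, against 2334 to 2459 CPM in the controls. Markers of other cell types were highest in dTAG replicate 3. The 4 hepatocyte markers summed to 1.32, 32.4 and 116 CPM in the dTAG libraries and to 1.15 to 2.697 CPM in the controls, and 4 adipocyte markers to 4.49, 29.6 and 109.8 CPM, against 0.831 to 1.35 CPM. The 6 fibroblast markers summed to 19.6, 88.2 and 279 CPM in the dTAG libraries and to 17.95 to 30.0 CPM in the controls. No defining marker of these 3 cell types was at 0 in dTAG replicates 2 and 3, whereas Adipoq and Col3a1 were at 0 in dTAG replicate 1 and in all 3 controls. The part of these differences in the results below was not tested, and in a bulk sample fewer cells and less RNA per cell cannot be told apart.

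The 28 genes together took 0.283%, 0.219% and 0.145% of the named counts in dTAG replicates 1, 2 and 3, against 0.262% to 0.284% in the controls. Their summed level was 2835, 2192 and 1451 CPM in the dTAG libraries and 2840, 2621 and 2689 CPM in the controls, so dTAG replicate 1 lay within the control range and the other dTAG libraries below it. Between the 3 controls the members varied little: the coefficient of variation had a median of 6.81%, against 21.6% for all 18116 genes tested and 11.9% for the 8876 tested genes of at least 10 CPM in the controls. It ran from 0.453% for Acaca to 42.4% for Hsd17b7.

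**Figure D1:**
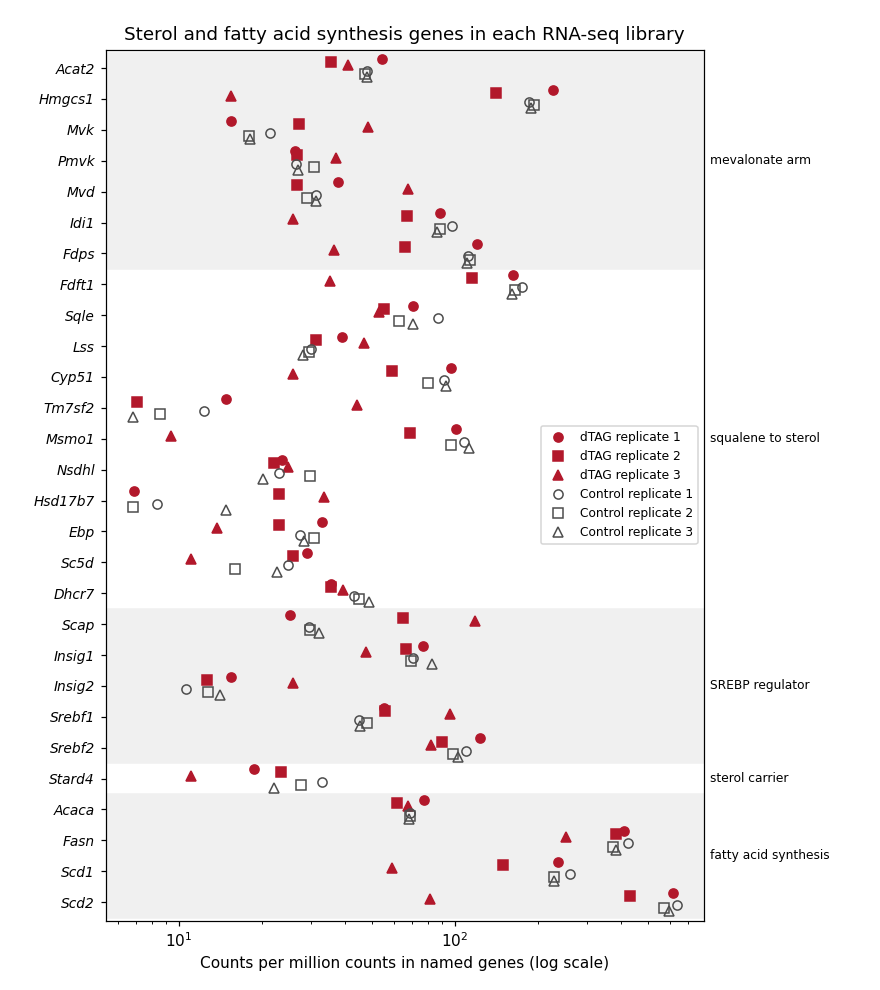
Level of each of the 28 genes (rows, grouped by role) as CPM on a log axis, with filled red symbols for the 3 dTAG libraries and open grey symbols for the 3 control libraries. The control symbols cluster closely, at 186 to 193 CPM for Hmgcs1, while the dTAG symbols spread, at 227, 140.3 and 15.4 CPM.

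Over all 6 libraries no member passed the test. The comparison asks which transcripts differ in level once dTAG has been added to cells whose H2A.Z.1 carries the tag. All 28 genes had enough counts to be tested, and 0 were higher and 0 lower at an adjusted p under 0.05 (edgeR quasi-likelihood test, Benjamini-Hochberg adjustment over 18116 genes), against 0% of all genes tested. At an unadjusted p under 0.05 there were 0 members and 4202 genes in all. The smallest adjusted p among the members was 0.219, for Dhcr7. With TMM scaling, fold changes were below 0 on the log2 scale for 25 members and above 0 for 3, Tm7sf2, Hsd17b7 and Scap. The median over the members was -0.70, against 0.16 for all genes tested. Some of these signs rest on the scaling: Lss and Srebf1, among the 25, were above every control by CPM in all 3 dTAG libraries. Mvk, Mvd, Pmvk and Insig2, also among the 25, were above every control by CPM in dTAG replicate 3. DESeq2 and limma-voom also called 0 members, though DESeq2 called 3206 genes in all. A count of 0 does not show that levels were alike.

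The arm from acetyl-CoA to farnesyl diphosphate had 7 members. Hmgcs1, which makes HMG-CoA, had 227, 140.3 and 15.4 CPM in dTAG replicates 1, 2 and 3, against 186, 193 and 188 CPM in control replicates 1, 2 and 3. The dTAG libraries thus lay on both sides of a narrow control range, with replicate 1 above it and replicate 3 at 8.17% of the control mean, on 28 counts. The log2 fold change was -0.86 (SE 1.07, edgeR adjusted p = 0.565). Fdps, which makes farnesyl diphosphate, had 119.9, 65.7 and 36.4 CPM in the dTAG libraries, against 111, 113 and 111 CPM in the controls, and Idi1, which isomerises the isoprene unit, had 88.4, 67.1 and 25.9 CPM, against 97.7, 87.9 and 86.1 CPM. Both were below every control in dTAG replicates 2 and 3. Acat2, the cytosolic thiolase that joins the first acetyl-CoA units, had 54.2, 35.7 and 40.8 CPM, against 47.9, 47.1 and 48.1 CPM. The 3 enzymes that phosphorylate and decarboxylate mevalonate did not share this pattern. Mvk had 15.4, 27.2 and 48.6 CPM in the dTAG libraries, against 21.4, 17.95 and 18.1 CPM in the controls. Mvd had 37.8, 26.7 and 67.9 CPM, against 31.3, 29.2 and 31.4 CPM, and Pmvk had 26.3, 26.7 and 37.0 CPM, against 26.5, 31.0 and 27.1 CPM. In dTAG replicate 3 these 3 were above every control, at 254%, 221% and 131% of the control mean for Mvk, Mvd and Pmvk. The other 4 genes of the arm were below every control there. Of all genes tested, 72.3% were above every control in that library and 22.4% below. Among those of at least 10 CPM in the controls the shares were 49.1% and 42.7%.

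The 11 enzymes from squalene to cholesterol were not alike in dTAG replicates 2 and 3. Fdft1, the squalene synthase, had 162, 115 and 35.3 CPM in dTAG replicates 1, 2 and 3, against 176, 165 and 161 CPM in the controls. Msmo1, a methylsterol oxidase, had 101, 69.0 and 9.38 CPM, against 108, 96.6 and 112 CPM, and Cyp51, the lanosterol demethylase, had 97.1, 59.1 and 25.9 CPM, against 91.3, 79.9 and 92.8 CPM. In all 3 genes dTAG replicates 2 and 3 were below every control, and Msmo1 stood at 8.89% of the control mean in dTAG replicate 3, on 17 counts (5.46 to 15.0 CPM, exact Poisson 95% interval). The log2 fold change of Cyp51 was -0.92 (SE 0.77, edgeR adjusted p = 0.459). Sqle, the squalene epoxidase that limits flux late in the pathway, had 70.2, 55.4 and 53.0 CPM in the dTAG libraries, against 86.6, 62.7 and 70.8 CPM in the controls. Its log2 fold change was -0.86 (SE 0.55, edgeR adjusted p = 0.379). Ebp, a sterol isomerase, had 33.0, 23.0 and 13.8 CPM, against 27.4, 30.9 and 28.5 CPM, and Sc5d, a sterol desaturase, had 29.2, 25.8 and 11.04 CPM, against 24.9, 15.97 and 22.7 CPM. Both were above every control in dTAG replicate 1 and below every control in dTAG replicate 3.

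Dhcr7, the reductase of the last step to cholesterol, was the single member below every control in all 3 dTAG libraries. It had 35.5, 35.7 and 39.2 CPM in dTAG replicates 1, 2 and 3, against 43.2, 44.8 and 48.9 CPM in the controls, and the groups did not overlap. Over all genes tested, 3.22% were below every control in all 3 dTAG libraries, so 1 of 28 members is near that background. With TMM scaling the log2 fold change of Dhcr7 was -0.98 (SE 0.43, edgeR adjusted p = 0.219). By CPM it stood at 77.7%, 78.1% and 85.8% of the control mean in dTAG replicates 1, 2 and 3. The size of its fold change thus rests on the scaling. In dTAG replicate 1 Dhcr7 rested on 458 counts, and the exact Poisson 95% interval of its level, 32.3 to 38.9 CPM, lay below the lowest control. This interval covers counting error only and not the spread between libraries. The log2 fold change of Dhcr7 in that library against the 3 controls was -0.45. Its mitochondrial ribosomal RNA share was within the control range, but 23.5% of the receptor genes had a count there, against 10.9% to 18.2% in the controls. Lss, the lanosterol synthase, and Srebf1 were above every control in all 3 dTAG libraries, which 23.9% of all genes were. Lss had 39.1, 31.4 and 46.9 CPM in the dTAG libraries, against 30.1, 29.5 and 28.2 CPM in the controls. Its direction flipped with the scaling, since the log2 fold change with edgeR's TMM scaling was -0.26 (SE 0.40, adjusted p = 0.638).

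The other 3 enzymes of this arm, Tm7sf2, Hsd17b7 and Nsdhl, had a coefficient of variation between the controls of 30.7%, 42.4% and 20.5%. Sc5d and Sqle, given above, varied there too, at 22.0% and 16.5%. Tm7sf2 and Hsd17b7 also had few counts, at most 209 in a control. Tm7sf2, a sterol reductase, had 14.9, 7.04 and 44.1 CPM in dTAG replicates 1, 2 and 3, against 12.4, 8.56 and 6.81 CPM in the controls. Hsd17b7, a ketosteroid reductase, had 6.90, 23.0 and 33.7 CPM, against 8.35, 6.84 and 14.8 CPM. Nsdhl, a dehydrogenase that acts with it, had 23.7, 22.0 and 24.8 CPM, against 23.0, 29.9 and 20.2 CPM, so all 3 dTAG libraries lay within the control range. Tm7sf2 was the highest member in dTAG replicate 3 relative to its control mean, at 478%.

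The 5 SREBP regulators differed among themselves. Srebf1, which encodes the SREBP that favours fatty acid genes, had 55.4, 55.8 and 96.0 CPM in dTAG replicates 1, 2 and 3, against 45.0, 47.9 and 45.3 CPM in the controls. With TMM scaling its log2 fold change was -0.20 (SE 0.38, edgeR adjusted p = 0.702), and with library totals alone it was 0.58 (SE 0.31, edgeR adjusted p = 0.229), so its direction rests on the scaling. Srebf2, which encodes the SREBP that favours sterol genes, had 123, 90.1 and 81.7 CPM, against 109, 98.4 and 103 CPM. Its log2 fold change was -0.61 (SE 0.62, edgeR adjusted p = 0.499), with dTAG replicate 1 above every control and dTAG replicates 2 and 3 below. Scap, which encodes the escort of SREBP, had 25.3, 64.7 and 119 CPM in the dTAG libraries, against 29.6, 29.8 and 32.1 CPM in the controls, and was thus below every control in dTAG replicate 1 and above every control in the other 2. Insig1, itself a target of SREBP, had 76.6, 66.6 and 47.5 CPM, against 70.6, 69.3 and 82.3 CPM, and its log2 fold change was -0.76 (SE 0.59, edgeR adjusted p = 0.439). Its paralogue Insig2 had 15.4, 12.7 and 25.9 CPM, against 10.6, 12.8 and 14.1 CPM. The 5 regulators summed to 296, 289.9 and 370 CPM in the dTAG libraries and to 265, 258 and 277 CPM in the controls. This sum was above every control in each dTAG library by CPM, although with TMM scaling 4 of the 5 fold changes were below 0. In dTAG replicate 2 Scap, at 64.7 CPM, and Srebf1 were above every control, and Insig1 and Srebf2 below. Taken singly, 1 of the 5, Srebf1, was above every control in all 3 dTAG libraries, against 23.9% of all genes tested. Stard4, which carries cholesterol between membranes, had 18.7, 23.5 and 11.04 CPM, against 33.0, 27.7 and 22.1 CPM.

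Fatty acid synthesis had 4 members. Acaca, the carboxylase that makes malonyl-CoA, had 77.2, 61.5 and 67.3 CPM in dTAG replicates 1, 2 and 3, against 68.7, 68.6 and 68.1 CPM in the controls, and in dTAG replicate 3 it was at 98.3% of the control mean. Fasn, the fatty acid synthase, had 410.1, 382 and 253 CPM, against 423, 374 and 383 CPM, and dTAG replicates 1 and 2 lay within the control range. Its log2 fold change was -0.71 (SE 0.85, edgeR adjusted p = 0.551). The desaturases Scd1 and Scd2 make monounsaturated fatty acids. Scd1 had 236, 149 and 59.0 CPM in the dTAG libraries, against 262, 229 and 228 CPM in the controls (log2 fold change -1.07, SE 0.89, edgeR adjusted p = 0.457). Scd2 had 615, 430.2 and 81.1 CPM, against 636, 574 and 595 CPM (log2 fold change -1.02, SE 1.16, edgeR adjusted p = 0.535). Both were within the control range in dTAG replicate 1 and below every control in dTAG replicates 2 and 3. Scd1 and Scd2 are near neighbours of similar sequence on chromosome 19, so how reads were shared between them is uncertain.

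**Figure D2:**
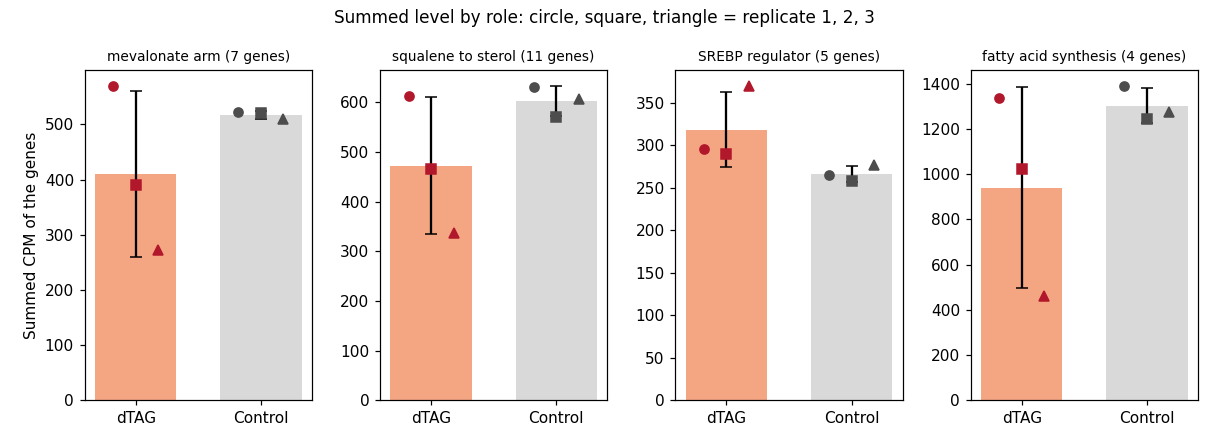
Summed CPM of the genes of each role, with bars and error bars for the mean and SD of 3 libraries and symbols for single libraries, dTAG left of control, each vertical axis starting at 0. The 5 SREBP regulators sum to 289.9 to 370 CPM in the dTAG libraries and 258 to 277 CPM in the controls. In dTAG replicate 2 Scap holds 64.7 CPM of that sum, while Insig1 and Srebf2 are below every control. The 4 fatty acid genes sum to 1338, 1022 and 461 CPM in dTAG replicates 1, 2 and 3 and to 1245 to 1390 CPM in the controls.

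Ratios of counts between 2 genes in the same library do not depend on scaling. Of 5 such ratios, 3 were within the control range in dTAG replicate 1 and 2 were below every control, and in dTAG replicate 3 all 5 were below every control. Scd2 had 2.60, 2.89 and 1.37 counts per count of Scd1 in dTAG replicates 1, 2 and 3, against 2.43, 2.50 and 2.61 in the controls. For Insig1 over Insig2 the ratio was 4.97, 5.26 and 1.83 in the dTAG libraries, against 6.66, 5.43 and 5.83 in the controls. All 3 dTAG libraries were below every control, but in dTAG replicate 2 the ratio rests on 142 and 27 counts and lies close to the lowest control. No error of these ratios and no share over other gene pairs was computed. For Srebf2 over Srebf1 it was 2.23, 1.61 and 0.851, against 2.43, 2.06 and 2.27. Hmgcs1 over Srebf2 stood at 1.84, 1.56 and 0.189 in the dTAG libraries and at 1.70, 1.96 and 1.83 in the controls, so this ratio of an enzyme to its regulator was within the control range in dTAG replicate 1. Fasn over Acaca was 5.31, 6.21 and 3.76 in the dTAG libraries, against 6.16, 5.45 and 5.62 in the controls, with dTAG replicates 1 and 3 below every control and dTAG replicate 2 above. Such ratios carry the lengths of both transcripts and are read between libraries only.

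Relative to the control mean, the SD of the log2 ratio over the 28 genes was 0.27, 0.46 and 1.54 in dTAG replicates 1, 2 and 3. Over the 8876 tested genes of at least 10 CPM in the controls it was 0.25, 0.74 and 1.85. In dTAG replicate 1 the members ran from 68.0% for Stard4 to 161% for Tm7sf2, with a median of 104%. There 18 of 28 members were within 20% of the control mean. The median over all genes tested in that library was 105%. In dTAG replicate 2 the members ran from 58.8% for Fdps to 229.7% for Hsd17b7, with a median of 86.0%, against 172% for all genes tested and 97.1% for those of at least 10 CPM in the controls. In dTAG replicate 3 they ran from 8.17% for Hmgcs1 to 478% for Tm7sf2, with a median of 75.5%, against 371% and 110.2%. In this library 10 members were below 50% of the control mean and 7 were above 200%, and no share over all genes was computed for these limits. More than 1.5-fold from the control mean were 21 of 28 members, against 6592 of the 8876 genes of at least 10 CPM. Both dTAG replicates 2 and 3 were below every control for 15 of 28 members, against 17.8% of all genes tested. Among the tested genes of at least 10 CPM in the controls this share was 34.8%. By role it was 4 of 7 genes of the mevalonate arm, 6 of 11 from squalene to cholesterol, 2 of 5 regulators and 3 of 4 fatty acid genes. The olfactory and vomeronasal receptor genes had a median of 3.86 CPM and a 90th percentile of 11.6 CPM in dTAG replicate 3, and 3 members, Msmo1, Sc5d and Stard4, were below that percentile there.

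**Figure D3:**
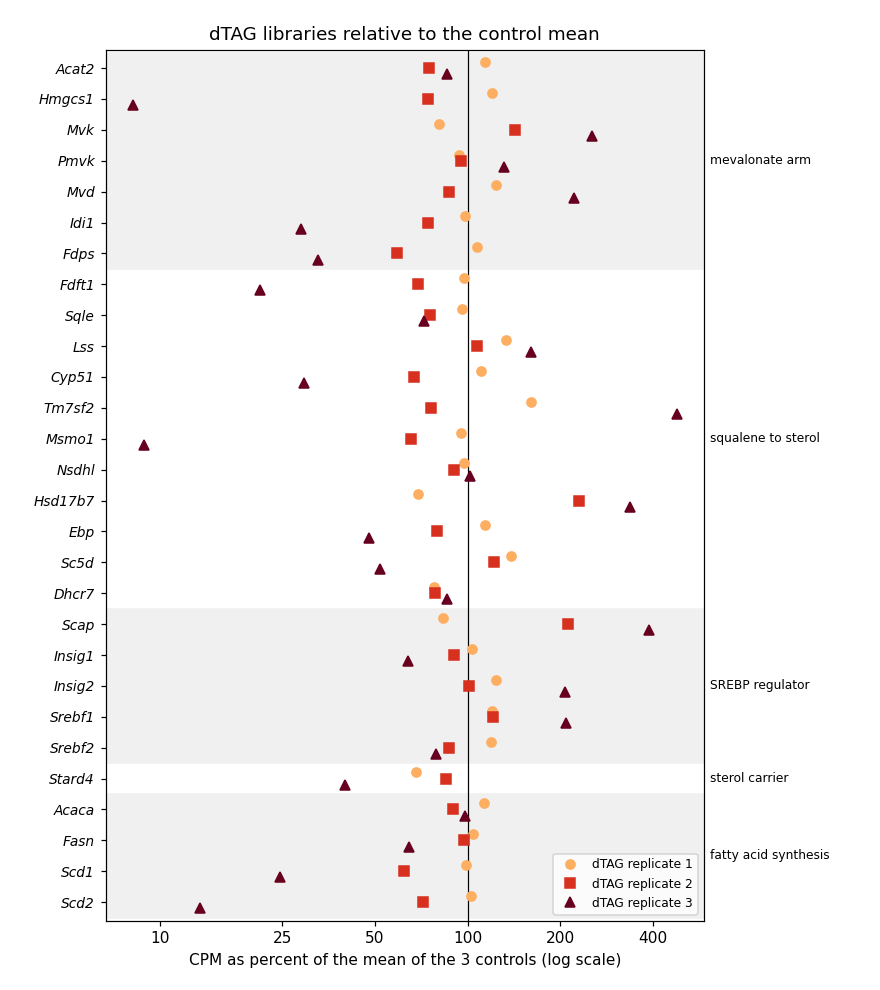
Each dTAG library as percent of the mean of the 3 controls for the 28 genes, on a log axis with a line at 100. Circles (dTAG replicate 1) lie between 68.0% and 161%, whereas triangles (dTAG replicate 3) run from 8.17% for Hmgcs1 to 478% for Tm7sf2.

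The test turned on dTAG replicate 1. Without that library, 16 of 28 members were lower and 0 higher (edgeR, adjusted p under 0.05), against 19.8% of 22093 genes lower and 40% higher. This fit tested more genes than the 18116 of the main test, and genes near 0 in the controls cannot be called lower. The share of lower calls among genes of like level was not computed, so 19.8% is not a like background for the members. In the 2 remaining dTAG libraries 71.5% and 97.0% of the receptor genes had a count and mitochondrial ribosomal RNA took 4.94% and 0.165% of the counts in replicates 2 and 3, and the part of this in the calls was not tested. The 16 were Acat2, Pmvk, Mvd, Idi1, Fdps, Sqle, Lss, Cyp51, Msmo1, Nsdhl, Ebp, Sc5d, Dhcr7, Insig1, Stard4 and Acaca. Lss, Mvd and Pmvk were called lower although their CPM in dTAG replicate 3 was above every control, so those calls rest on the TMM scaling. Nsdhl was called lower although its CPM in dTAG replicates 2 and 3 lay within the control range. Acaca was called lower at 89.8% and 98.3% of the control mean in dTAG replicates 2 and 3. How far the other calls rest on the scaling was not tested. Ebp had the smallest adjusted p, 0.00579, and its log2 fold change was -1.90 (edgeR). Without dTAG replicate 3 no member was called, and the median log2 fold change of the 28 genes was -0.34, against 0.06 for all genes.

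dTAG replicate 1 alone was set against the 3 controls, which assumes that a single dTAG library varies like the controls. No member passed (0 of 28, edgeR), against 16 of 18143 genes or 0.0882%. The median log2 fold change of the 28 genes was -0.03, against -0.02 for all genes, and 2 members had an unadjusted p under 0.05, Stard4 and Dhcr7, against 1041 genes in all. By CPM, 13 of 28 members were above every control in dTAG replicate 1, against 34.2% of all genes tested, and 5 were below, against 16.9%. Those 5 were Mvk, Pmvk, Dhcr7, Scap and Stard4. The 3 members with the largest log2 ratios upwards were Tm7sf2 (log2 fold change 0.61, SE 0.40), Sc5d (0.39, SE 0.28) and Lss (0.33, SE 0.23), each with an edgeR adjusted p = 0.973. The 3 furthest down were Stard4 (-0.64, SE 0.29, edgeR adjusted p = 0.804), Hsd17b7 (-0.62, SE 0.47, edgeR adjusted p = 0.973) and Dhcr7 (-0.45, SE 0.22, edgeR adjusted p = 0.857). Hmgcs1 had 2932 counts there and its log2 fold change was 0.18 (SE 0.12, edgeR adjusted p = 0.973), and Scd2 had 7933 counts and -0.05 (SE 0.09, edgeR adjusted p = 0.992). The SD of the log2 ratio over the 28 genes was 0.27 in dTAG replicate 1 against the mean of 3 controls, and 0.21 to 0.25 for each control against the mean of the other 2.

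**Figure D4:**
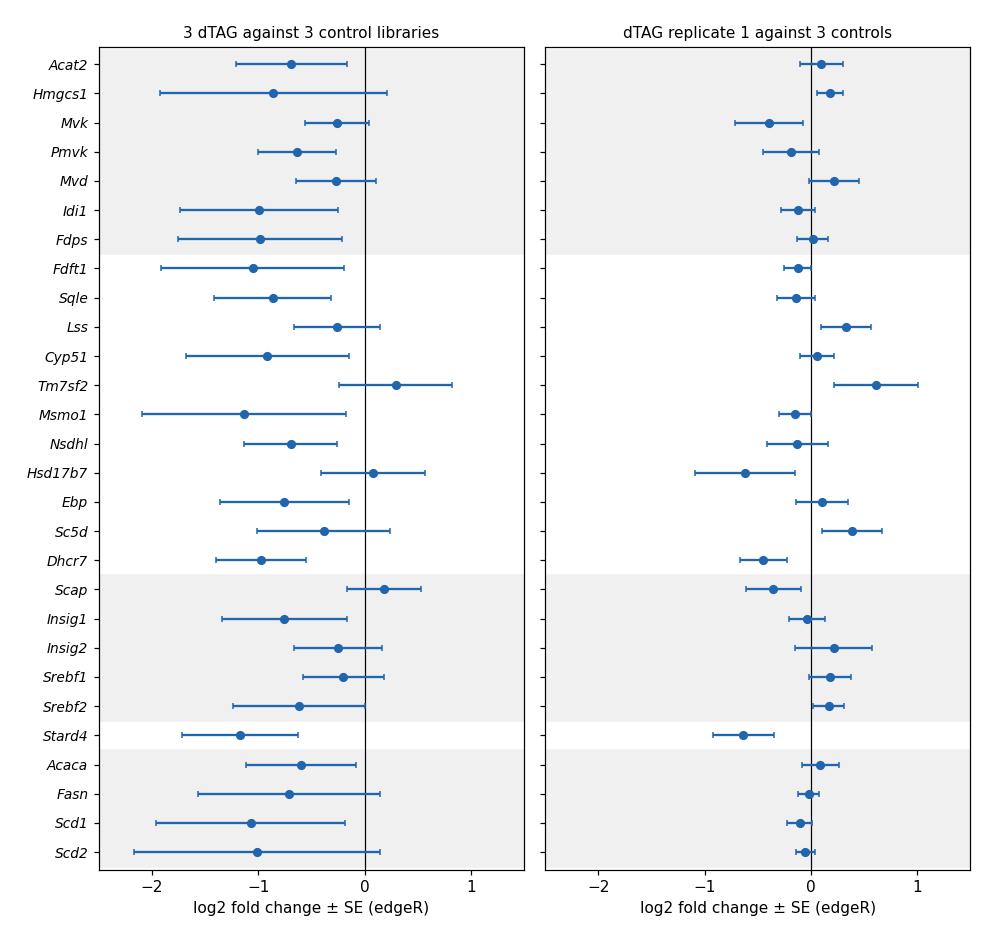
Log2 fold change and SE (edgeR, TMM scaling) of the 28 genes for the 3 dTAG against the 3 control libraries (left) and for dTAG replicate 1 against the 3 controls (right). On the left 25 of 28 values are below 0 with wide errors, such as -0.86 with an SE of 1.07 for Hmgcs1; on the right they lie on both sides of 0, between -0.64 and 0.61.

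Other genes of lipid metabolism gave no call over the 6 libraries, in 3 lists. Among 25 further fatty acid synthesis genes 0 were called (edgeR), with fold changes above 0 for 10 and below 0 for 15. The elongase Elovl6 had 265, 178 and 34.8 CPM in dTAG replicates 1, 2 and 3, against 339, 287 and 276 CPM in the controls. Acly, which makes cytosolic acetyl-CoA from citrate, had 211, 176 and 144 CPM, against 216, 177 and 206 CPM. Acsl3, which activates long-chain fatty acids, had 108, 76.5 and 23.7 CPM in the dTAG libraries, against 117, 97.0 and 94.2 CPM in the controls. Fads2, a desaturase of polyunsaturated fatty acids, had 75.7, 70.8 and 28.7 CPM, against 82.9, 72.4 and 76.1 CPM. These 4 genes, the list's highest by summed counts, were below every control in dTAG replicates 2 and 3. Acly and Fads2 lay close to the lowest control in dTAG replicate 2. Of the whole list 8 of 25 genes (32%) were below in both, against 34.8% of tested genes of at least 10 CPM in the controls. In dTAG replicate 3, 14 of the 25 were above every control. Acacb, which makes malonyl-CoA at mitochondria and is the paralogue of Acaca, had 24.5, 107 and 265 CPM, against 21.8, 22.7 and 18.9 CPM, and was chosen here after its values were seen. In 14 genes of isoprenoid synthesis and SREBP processing 0 were called, and Mbtps1, the Golgi protease that first cuts SREBP, had 129, 115 and 69.5 CPM, against 116, 107 and 119 CPM. Cyb5r3, which passes electrons to lipid desaturases, had 107, 65.7 and 34.8 CPM in the dTAG libraries, against 112, 109 and 88.1 CPM in the controls. Por, the electron donor of Cyp51, had 59.3, 51.6 and 44.1 CPM, against 70.8, 55.6 and 60.3 CPM. Nus1, a subunit of the enzyme that makes dolichol precursors, had 51.7, 33.3 and 77.2 CPM, against 66.1, 45.0 and 54.8 CPM, below every control in dTAG replicate 2 and above in dTAG replicate 3. Among 15 genes of sterol transport, storage and LXR, the sterol-sensing receptor, 0 were called as well. Npc2, which moves cholesterol out of lysosomes, had 60.4, 38.9 and 41.9 CPM in the dTAG libraries, against 58.7, 45.9 and 59.5 CPM in the controls. Soat1, which esterifies cholesterol, had 41.7, 39.4 and 40.3 CPM, against 48.6, 42.1 and 51.1 CPM. Npc2 and Soat1, and no other of the 15, were below every control in dTAG replicates 2 and 3. Osbp, which carries sterols to the Golgi, had 45.6, 60.5 and 78.3 CPM, against 39.4, 42.5 and 37.8 CPM. Nr1h2, which encodes the LXR form found in most cells, had 39.4, 61.0 and 121 CPM in the dTAG libraries, against 36.9, 38.8 and 42.0 CPM in the controls, and like Osbp it was above every control in dTAG replicates 2 and 3. The median log2 fold changes of these 3 lists were -0.33, -0.22 and 0.33, beside -0.70 for the 28 genes and 0.16 for all genes. In dTAG replicate 1 against the 3 controls, 0 genes of these lists were called.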

How the data were processed

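Stranded, ribosomal-RNA-depleted RNA-seq libraries are described for all 6 samples, per the labels' protocols, although a kit for messenger RNA is named. The deposited values are raw counts for each gene, as whole numbers; STAR 2.7.2b, featureCounts, edgeR and limma are named with build mm10, per the submitters' processing notes, and whether counting used the strand is not given in the sources used here. By RefSeq spans, 11 of the 28 genes overlap another gene (Tm7sf2 with Vps51, Acaca with Tada2a), whose reads could not be told apart. ERCC spike-in RNA was added, per the labels, but 0 rows carry its name, so total RNA per cell was not measured.

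Columns were matched to samples by title. Rows without a gene name (903) were left out and held 2.33%, 6.67% and 14.6% of the counts in dTAG replicates 1, 2 and 3 and 2.20% to 2.37% in the controls. A count of 0 allows 3 counts, or 0.232, 1.41 and 1.66 CPM in the dTAG libraries and 0.192 to 0.213 CPM in the controls; Poisson intervals cover counting error only. All library pairs differed beyond sampling noise (chi-square per gene at least 9.49). Nothing says the replicates are separate cultures, so p-values measure the spread between these libraries.

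Tests used edgeR 4.0.16 in R 4.3.3 (glmQLFit, glmQLFTest, two-sided, group alone), TMM, filterByExpr (minimum count 10, minimum total 15) and Benjamini-Hochberg adjustment over all genes tested, at 0.05. TMM factors were 0.789, 1.23 and 2.32 in dTAG replicates 1, 2 and 3 and 0.742 to 0.805 in the controls. Log2 ratios used a pseudocount of 1 CPM; SE came from the fold change and F. Alternatives were RLE, library totals, no filter, DESeq2 1.42.0, limma-voom (limma 3.58.1), a replicate block, a threshold of 0.01 and leaving out libraries. Members, lists and alternatives were chosen with earlier results of these data known. All members are named; fold changes are given for Hmgcs1, Sqle, Cyp51, Insig1, Srebf1, Srebf2, Fasn, Scd1 and Scd2, and for dTAG replicate 1 the 3 furthest members each way. Fold changes of Dhcr7, Lss and Ebp were added after their values were seen. Of each other list the 4 genes with the largest summed counts are shown, and Acacb besides. Levels were not compared between genes, since no transcript length was used.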

Additional observations from a re-analysis of the deposited data

Results flagged for a closer look

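Rows without a gene name, which enter no comparison, held 6.67% of the counts in dTAG replicate 2 and 14.6% in dTAG replicate 3, above the 2.20% to 2.37% of the controls. This was looked at because it is a signal outside the genes tested. The part of it in the levels of the 28 genes was not tested.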

How the results depend on the processing

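No member was called under RLE scaling, library totals, no filter on low counts, DESeq2, limma-voom, the replicate block, a threshold of 0.01, dTAG replicate 1 alone or the leaving out of any library but dTAG replicate 1. Leaving out 1 library gave 0 to 16 members called and 0 to 13222 genes called, and a median log2 fold change of the members minus that of all genes from -2.27 to -0.40, beside -0.86 with all 6; without dTAG replicate 3 it was -0.40, without dTAG replicate 1 -2.27 and without control replicate 1 -1.37. With dTAG replicate 1 alone it was -0.01, with library totals -1.26 and without the filter -1.82. Genes called in all numbered 0 in the main test, 1398 without the filter, 3206 with DESeq2, 13 with the replicate block and 16 with dTAG replicate 1 alone; the causes were not tested. The direction of Srebf1 turned with library totals (0.58), and with dTAG replicate 1 alone Hmgcs1 (0.18), Cyp51 (0.059), Srebf1 (0.18) and Srebf2 (0.17) turned. Of 126 single-gene values under alternatives, 118 kept their direction and side of the threshold, 5 turned and 3 passed it (Sqle, Cyp51 and Insig1, without dTAG replicate 1). Same-numbered libraries did not deviate together (r = 0.032, -0.027 and 0.032 for pairs 1, 2 and 3), and the replicate block called 0 members. The deviations of the dTAG libraries also hold the inequality between them given above, so these r values cannot tell whether the numbers pair the libraries. With CPM over all rows the members summed to 2018 CPM in dTAG libraries and 2654 CPM in controls (means), against 2159 and 2717 CPM over named genes. Depth limits dTAG replicates 2 and 3, where members had 15 to 917 and 17 to 459 counts.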

Other observations

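Of the sterol transport, storage and LXR genes, 13 of 15 were above every control in dTAG replicate 3 and 2 below, against 72.3% and 22.4% of all genes tested, and 3 more of them are given, all chosen after their values were seen. Nr1h3, which encodes the LXR form of liver and fat, had 2.71, 25.8 and 78.9 CPM in dTAG replicates 1, 2 and 3, against 0.491, 0.767 and 0.993 CPM in the controls (edgeR adjusted p = 0.0795). Soat2, which esterifies cholesterol in liver and gut, had 0.232, 16.4 and 56.3 CPM in the dTAG libraries, against 0.140, 1.98 and 0.355 CPM in the controls (edgeR adjusted p = 0.205). Abca1, a cholesterol exporter, had 12.9, 30.5 and 85.5 CPM, against 11.9, 9.52 and 15.4 CPM (edgeR adjusted p = 0.351). In dTAG replicates 2 and 3 receptor genes that stem cells do not use also had counts, as given above, and the part of this in these values was not tested.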
